A study of Homo sapiens with 22 samples.

Results

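In cells labelled 22Rv1 with H1-10 overexpression, Pol2S5p was called in 40626 regions. Of these, 11736 (28.9%) were also called under both an siRNA against E2F3 and a control siRNA and had no counterpart in control cells. These members were chosen by position: each overlapped a row of the siE2F3 list and a row of the siCtrl list by at least 1 bp and overlapped no row of the Ctrl list. A row is 1 peak of a deposited list. The choice itself used the 4 Pol2S5p lists, so the presence of the members in 3 lists and their absence from Ctrl are a description and support nothing further. Rows of H1-10 OE with no Ctrl counterpart, in either siRNA list or not, numbered 17405 (42.8%).

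The study mapped chromatin by ChIP-seq, with and without added H1-10, in cells labelled 22Rv1, a long-established line of human prostate cancer cells. H1-10 is a variant of the linker histone, which binds DNA at the entry and exit of the nucleosome. The groups used here were H1-10 OE (the labels give H1-10 overexpression), siE2F3 (an siRNA against E2F3), siCtrl (a control siRNA) and Ctrl, each with 1 Pol2S5p library. The sample labels of siE2F3 and siCtrl do not mention H1-10; the peak names inside both lists carry the tag H1FXOE, H1FX being an older name of H1-10. E2F3 and H3K27me3 were mapped in H1-10 OE and in Ctrl, again in 1 library each. How H1-10 was overexpressed, and whether the cells were 1 clone or a pool, is not given in the sources used here. With 1 library per group no difference between groups has a replicate check, and added H1-10 cannot be told apart from any other difference between the libraries or their cells.

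Pol2S5p is RNA polymerase II phosphorylated on serine 5 of the repeats in its C-terminal tail, the form that accumulates where transcription begins and thins out along the gene body. E2F3 is a transcription factor of the E2F family, which binds promoters of cell cycle genes. H3K27me3 is the histone mark laid down by Polycomb repressive complex PRC2 and is typical of silenced developmental genes.

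The clusters with the largest summed member length lay over AMOT, XIST, the MIR221 and MIR222 locus and the HOXD genes. No hg19 annotation was used, so gene names rest on hg19 gene positions recalled from general knowledge rather than read from a file, and most were attached after the regions had been seen. The recalled chromosomes matched RefSeq for 127 of 127 genes and the order along the chromosome for 104 of 104 neighbouring pairs, but only 106 recalled lengths came within 10% of the RefSeq length and 21 did not. Regions that overlap no recalled gene are given by position.

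MIR221 and MIR222 encode microRNAs, short RNAs that pair with messenger RNAs through their seed. Their RefSeq mature sequences are shown because both 3p arms come from the same cluster of members and carry the same seed, in capitals (bases 2 to 8, GCUACAU). The 5p arm of miR-222 has another seed.
hsa-miR-221-3p: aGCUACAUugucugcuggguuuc
hsa-miR-222-3p: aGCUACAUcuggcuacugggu
hsa-miR-222-5p: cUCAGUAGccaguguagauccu

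The RefSeq promoters of 4 genes at the leading members are shown to set their CpG content side by side, with CpG dinucleotides in capitals. Each runs from 250 bases before to 50 bases after the gene start in GRCh38.p14. Whether a member covers exactly these bases was not tested, since the peaks are on hg19. They were picked after the members' values had been seen.
AMOT promoter, chrX:112840782-112841081 of GRCh38.p14, minus strand: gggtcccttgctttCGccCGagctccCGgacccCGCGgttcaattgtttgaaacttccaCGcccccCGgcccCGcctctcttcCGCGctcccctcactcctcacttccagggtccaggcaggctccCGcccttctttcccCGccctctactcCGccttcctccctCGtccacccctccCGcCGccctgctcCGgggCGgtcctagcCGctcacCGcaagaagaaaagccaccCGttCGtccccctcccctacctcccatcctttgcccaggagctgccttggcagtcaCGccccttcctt
XIST promoter, chrX:73852665-73852964 of GRCh38.p14, minus strand: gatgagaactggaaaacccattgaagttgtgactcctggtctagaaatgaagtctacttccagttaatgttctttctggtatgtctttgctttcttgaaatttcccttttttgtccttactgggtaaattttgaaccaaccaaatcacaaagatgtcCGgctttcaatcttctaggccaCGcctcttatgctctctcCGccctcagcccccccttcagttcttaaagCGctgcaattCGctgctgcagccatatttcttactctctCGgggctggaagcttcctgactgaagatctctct
HOXD13 promoter, chr2:176092471-176092770 of GRCh38.p14, plus strand: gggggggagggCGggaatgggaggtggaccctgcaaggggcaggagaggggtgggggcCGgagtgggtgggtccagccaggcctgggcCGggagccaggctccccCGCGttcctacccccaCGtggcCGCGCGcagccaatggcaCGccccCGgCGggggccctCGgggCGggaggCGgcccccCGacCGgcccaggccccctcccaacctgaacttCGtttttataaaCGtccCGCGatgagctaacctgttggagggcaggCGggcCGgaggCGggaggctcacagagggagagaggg
KCTD12 promoter, chr13:76886356-76886655 of GRCh38.p14, minus strand: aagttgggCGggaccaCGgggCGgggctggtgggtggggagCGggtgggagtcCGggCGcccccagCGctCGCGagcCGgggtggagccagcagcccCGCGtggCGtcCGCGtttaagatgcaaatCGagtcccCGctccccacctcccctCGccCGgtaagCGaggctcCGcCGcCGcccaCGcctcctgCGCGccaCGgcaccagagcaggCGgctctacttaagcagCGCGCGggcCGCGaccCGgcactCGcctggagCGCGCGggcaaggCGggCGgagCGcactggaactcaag

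KCTD12 had 41 CpG in its 300 bases, HOXD13 24, AMOT 23 and XIST 6, against a median of 14 (quartiles 4.00 and 28.0) over 35116 RefSeq promoters. KCTD12 thus stood above 93.3% of promoters and XIST above 33.7%. None of the 4 promoters held any of 3 E2F words searched on both strands, TTTCGCGC, TTTGGCGC and TTTCCCGC, which occurred in 0.515%, 0.652% and 1.63% of all promoters (any of them in 2.74%). This says only that these letters are not in these windows.

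Before the results, the labels were set against marker genes. The 3 lists that define the members differed from Ctrl at genes that mark prostate luminal cells. All rows together covered 39.1 Mb in H1-10 OE, 90.7 Mb in siE2F3 and 103 Mb in siCtrl, against 43.1 Mb in Ctrl. Lengths and gene counts here and in the next paragraph were not scaled to this. Of 8 luminal genes, 4 had a Pol2S5p row within 5 kb in H1-10 OE, 4 in siE2F3 and 4 in siCtrl, against 7 in Ctrl, and the summed length of those rows was 6.96 kb, 12.2 kb and 15.2 kb against 46.1 kb in Ctrl. KLK3, which encodes prostate-specific antigen, had no row in H1-10 OE, siE2F3 or siCtrl and 4.39 kb of rows in Ctrl. KLK2 and TMPRSS2 also had none in those 3 lists, against 6.59 kb and 0.671 kb in Ctrl, and ACP3 had none in any of the 4 lists. SLC45A3 went the other way, with 1.09 kb in H1-10 OE, 0.903 kb in siE2F3 and 1.24 kb in siCtrl, against 0.640 kb in Ctrl. No luminal gene held a member. With the 7 luminal genes whose recalled length fell within 10% of RefSeq, the sums were 5.85 kb, 10.4 kb and 13.9 kb against 38.2 kb in Ctrl.

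Summed over mesenchymal and stromal genes, the same lists differed from Ctrl in the other direction. Of 11 such genes, 9 had a row in each of H1-10 OE, siE2F3 and siCtrl and 6 in Ctrl, with summed lengths of 26.6 kb, 35.2 kb and 32.1 kb against 6.71 kb, and 7 held members: CDH2, FN1, SNAI2, TWIST1, VIM, ZEB1 and ZEB2. VIM, an intermediate filament gene, had 3 members and 9.87 kb of rows in H1-10 OE, 12.2 kb in siE2F3 and 10.2 kb in siCtrl, against 2.05 kb in Ctrl. TWIST1 differed less, with 1.97 kb, 2.35 kb and 3.05 kb against 1.88 kb in Ctrl. Its only member was weak (fold enrichment 2.95, -log10 q 1.60). COL1A1 had 0.418 kb in H1-10 OE and 0.550 kb in siE2F3, below the 0.718 kb in Ctrl, and 0.812 kb in siCtrl. COL1A2 and COL3A1 had no row in any list. Of 8 epithelial genes only CLDN7 held a member; rows lay near 5 of them in H1-10 OE, 4 in siE2F3 and 7 in siCtrl, against 8 in Ctrl, with 8.22 kb, 20.5 kb and 21.2 kb against 51.0 kb. CDH1, the E-cadherin gene, had 0.464 kb in H1-10 OE, none in siE2F3 and 0.295 kb in siCtrl, against 19.0 kb over 31 rows in Ctrl. The keratin genes KRT8 and KRT18 did not follow it in the siRNA lists: KRT8 had 2.84 kb in H1-10 OE, 9.66 kb in siE2F3 and 8.38 kb in siCtrl, against 5.47 kb in Ctrl, and KRT18 had 1.68 kb, 3.18 kb and 3.36 kb, against 2.79 kb in Ctrl. On chromosome Y there was no row in H1-10 OE, siE2F3 or siCtrl and 26 in Ctrl. XIST, described with the clusters, was covered in those 3 lists and not in Ctrl. Whether the 3 libraries come from the cell line that their labels name was not tested, nor was the part of these differences in the results. This limit applies to every member, and no result can be given without these libraries, since the rule needs all of them.

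The remaining lists held members at 7 of 12 E2F and cell cycle genes, 3 of 7 Polycomb genes, 4 of 9 Hippo and YAP genes, 2 of 8 neuroendocrine genes and 1 of 6 blood genes. The share of all genes that hold a member was not computed, so nothing is read from these counts or from those of the marker lists above. Members were in the E2F and cell cycle list at CCNE1, E2F1, E2F3, MCM2, MCM5, PCNA and TYMS, although all 12 of those genes had rows in every one of the 4 lists. At E2F3 itself the only member was weak (fold enrichment 2.95 over the authors' background, -log10 q 1.60). In the Hippo and YAP list, 30 of the 33 members lay at AMOT, whose product angiomotin binds the coactivator YAP. CCN2, a known YAP target, had 1 member (fold 9.88) and no Ctrl row, but 8 of the 9 genes of that list had one. CCN1 had 1 member (fold 5.53) and 2.09 kb of Ctrl rows, and ANKRD1 had no member and 0.310 kb in Ctrl. H1-10 itself held no member; its rows reached a fold of 84.0 in H1-10 OE, 40.4 in siE2F3 and 34.9 in siCtrl, against 32.2 in Ctrl.

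Members were mostly short and weak rows. Their median width was 474 bp (quartiles 348 and 687 bp) and together they covered 7.01 Mb, while the 21972 rows called in all 4 lists had a median width of 1059 bp. The median fold enrichment was 4.79 for members and 8.86 for rows in all 4 lists. In 4868 members (41.5%) the -log10 q was 5 or higher, as it was in 78.9% of rows in all 4 lists. The H1-10 OE list was cut by -log10 p into 3 strength classes of equal size: 48.6% of members fell in the weakest, 40.9% in the middle and 10.5% in the strongest class, against 16.0%, 29.2% and 54.8% of rows in all 4 lists. The weakest members had -log10 q values of 1.30, 1.32 and 1.34. Just inside the positional edge, 208 members lay within 50 bp of a Ctrl row; just outside it, 210 rows called in all 4 lists shared under 50 bp with Ctrl, the least being 1, 1 and 2 bp.

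The siRNA lists were longer, with 83067 rows in siE2F3 and 83650 in siCtrl against 40626 in H1-10 OE. Their rows were not wider as a whole, with medians of 582 and 637 bp against 641 bp in H1-10 OE. The siRNA rows that met members were wide, with medians of 1136 bp in siE2F3 and 1433 bp in siCtrl. Members met 10219 rows of siE2F3 and 9833 of siCtrl, of which 1277 and 1422 held more than 1 member, up to 13 and 12 in a row. For 4224 members (36.0%) a row of siE2F3 or siCtrl that met the member also reached a Ctrl row, and for 7512 (64.0%) none did.

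The clusters show where members gathered. Joining members with gaps of at most 10 kb gave 7278 clusters, of which 5133 were single members, 976 held at least 3 and 36 at least 10. The 976 held 4265 members, 36.3% of all (95% Wilson interval 35.5 to 37.2%, counting error only), and 11.9% where a -log10 q of at least 5 was asked in H1-10 OE, siE2F3 and siCtrl. Joined in the same way, the share was 59.3% for all H1-10 OE rows and 46.5% for the rows in all 4 lists. These lists hold more rows, which join more readily, so nothing is read from the difference. The clusters named here are the 12 with the largest summed member length, of which 6 lay on chromosome X.

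The AMOT cluster had the largest summed member length, with 30 members over chrX:112014239-112076372 (62.1 kb). Rows covered 44.9 kb of it in H1-10 OE, 51.8 kb in siE2F3, 50.8 kb in siCtrl and 0 kb in Ctrl. The strongest of its members had a fold of 15.2. The nearest Ctrl row lay 7.28 kb away, so Pol2S5p was not missing from the neighbourhood in Ctrl. It was 1.55 kb long with a fold of 8.10 and was the only Ctrl row within 5 kb of AMOT. Rows of H1-10 OE, siE2F3 and siCtrl overlapped it, so AMOT itself was not without Pol2S5p in Ctrl. Neither E2F3 nor H3K27me3 was called within the cluster in H1-10 OE or in Ctrl. Within 5 kb of the gene, however, 1 E2F3 row of Ctrl was called and none of H1-10 OE.

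XIST, the noncoding RNA that coats the inactive X chromosome, lay under 2 members that filled chrX:73033531-73072989 almost without a gap. They covered 39.3 kb in H1-10 OE, while the locus had 38.8 kb in siE2F3, 39.3 kb in siCtrl and 0 kb in Ctrl. Both were the highest members by -log10 q, with folds of 43.4 and 39.4. The second overlapped an E2F3 row of H1-10 OE (fold 8.11), and the nearest E2F3 row of Ctrl was 90.9 kb away from it.

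The MIR221 and MIR222 cluster held 6 members in 29.4 kb, chrX:45601392-45630752, with a highest fold of 31.8. Rows covered 27.5 kb in H1-10 OE, 26.0 kb in siE2F3 and 27 kb in siCtrl, and 0 kb in Ctrl, whose nearest row was 626 kb away. No E2F3 or H3K27me3 row of either state fell inside it.

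The HOXD cluster, chr2:176956897-177005629, held 17 members across HOXD8 to HOXD13, homeobox genes that pattern the body axis and limbs. Rows covered 21.0 kb in H1-10 OE, 30.4 kb in siE2F3 and 31.2 kb in siCtrl, and 0 kb in Ctrl. E2F3 of Ctrl had 2 rows inside it and E2F3 of H1-10 OE none. H3K27me3 had no row inside it in either state.

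**Figure D1:**
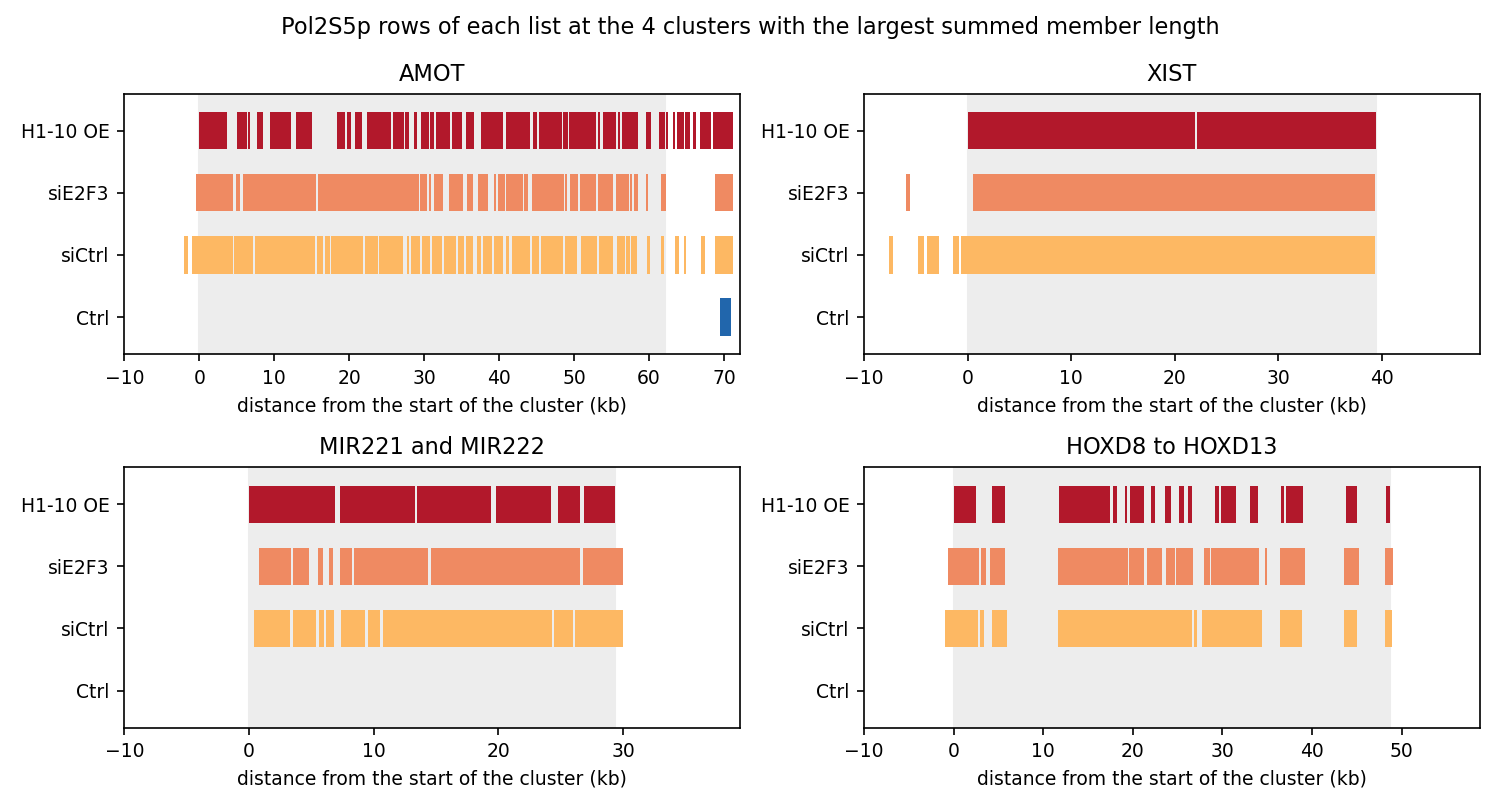
Rows of the 4 Pol2S5p lists at the AMOT, XIST, MIR221 and MIR222, and HOXD clusters; the horizontal axis is the distance in kb from the start of the cluster, each block is 1 row, and the shaded span is the cluster. The 3 upper lists cover 21.0 to 51.8 kb of each span and the Ctrl list 0 kb.

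The other HOX clusters were less exclusive. Over HOXB5 to HOXB9 (chr17:46670577-46699265) 7 members lay in a locus with 20.4 kb of rows in H1-10 OE, 20.8 kb in siE2F3 and 21.5 kb in siCtrl, against 5.57 kb in Ctrl. Over HOXA2 and HOXA3 (chr7:27139827-27167243) 11 members lay in 15.6 kb, 19.4 kb and 20.6 kb of rows, against 2.74 kb in Ctrl. At both, a Ctrl row was within 1 kb of a member, at 0.415 kb and 0.0360 kb.

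Another 3 clusters had no Ctrl row inside. IRS4, an adaptor of insulin receptor signalling, had 3 members over chrX:107960732-107980828, with 19.2 kb of rows in H1-10 OE, 18.8 kb in siE2F3 and 16.2 kb in siCtrl. Inside that cluster 2 H3K27me3 rows of H1-10 OE and 1 E2F3 row of Ctrl were called. CA2, a carbonic anhydrase gene, had 10 members over chr8:86375460-86397431 with 12 kb, 14.6 kb and 13.1 kb, its nearest Ctrl row being 217 kb away. The region chrX:134058693-134081444, with no gene assigned, had 7 members and 17.8 kb, 15.7 kb and 17.5 kb.

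At FLNA, MTA1 and GPSM1 the members stood among Ctrl rows. FLNA, an actin cross-linker, had 11 members over chrX:153578776-153605861, where Ctrl covered 2.36 kb. MTA1, a subunit of the NuRD deacetylase complex, had 18 members over chr14:105888202-105936733 and GPSM1, a modulator of G-protein signalling, 12 over chr9:139223025-139252980. In siE2F3 and siCtrl these last spans were covered over 44.3 and 46.1 kb at MTA1 and 27.7 and 29.4 kb at GPSM1, while H1-10 OE covered 18.1 and 11.3 kb and Ctrl 7.79 and 0.706 kb.

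**Figure D2:**
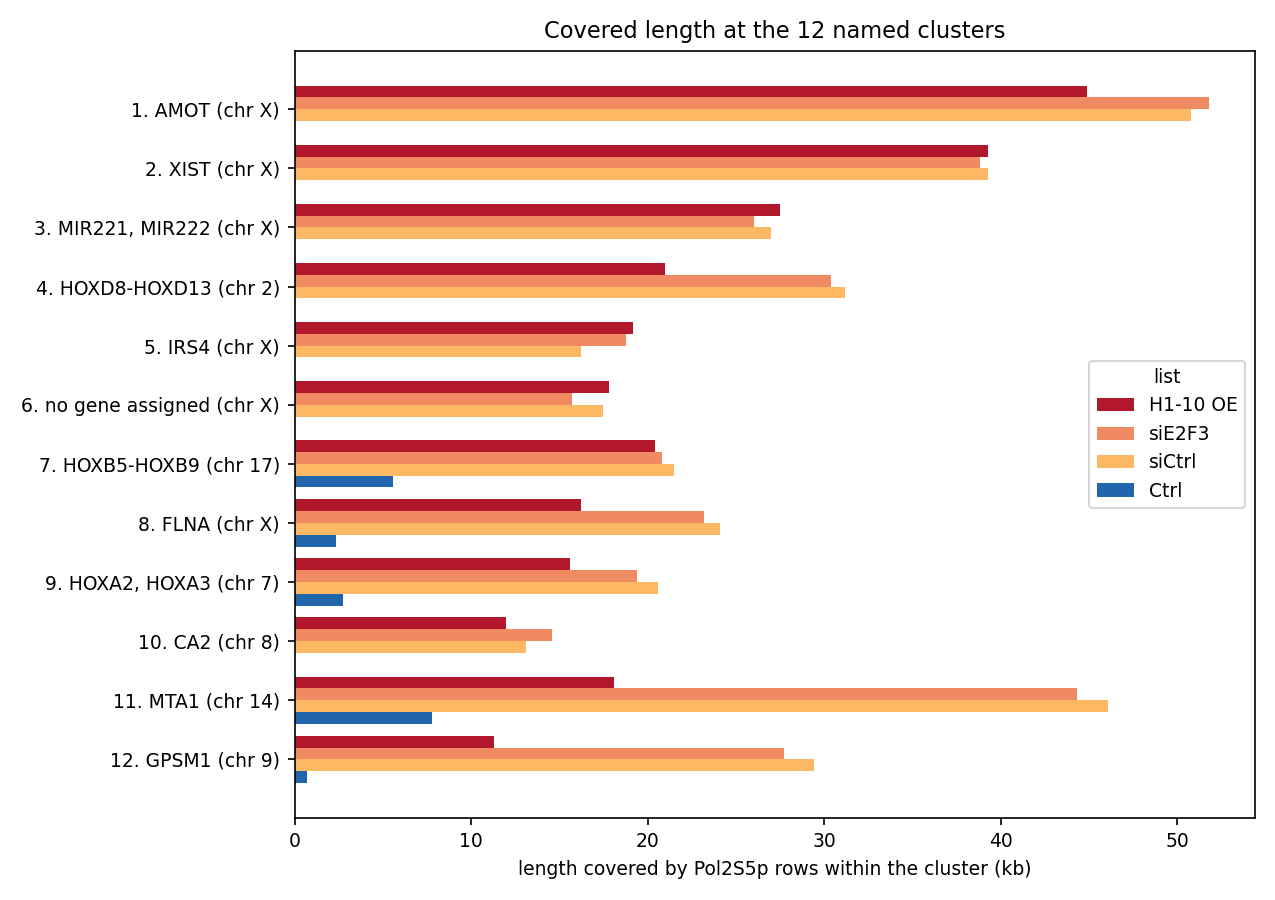
Length in kb covered by Pol2S5p rows within each of the 12 named clusters, 1 bar per list in the order H1-10 OE, siE2F3, siCtrl and Ctrl. Ctrl has no bar at 7 clusters and at most 7.79 kb, at MTA1.

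Single members that ranked high included KCTD12, TIMP2 and SHISA2. KCTD12, an auxiliary subunit of GABA-B receptors, had a member at chr13:77458402-77461299 with a fold of 34.2 in H1-10 OE, 14.8 in siE2F3 and 27.1 in siCtrl, 104 kb from the nearest Ctrl row. TIMP2, an inhibitor of metalloproteinases, had one at chr17:76920541-76922477 with folds of 33.0, 35.4 and 37.4 in the same order, 48.7 kb from Ctrl. SHISA2 had one at chr13:26622664-26626474 with folds of 30.5, 38.8 and 55.3, 134 kb from Ctrl. Folds are the authors' values within each list, set side by side here and at H1-10, and no difference between lists is read from them. KCTD12 and TIMP2 overlapped an E2F3 row of Ctrl (folds 7.76 and 8.85) and no E2F3 row of H1-10 OE. SNORD3B-1, a copy of the U3 small nucleolar RNA with near-identical relatives that share reads, had a member only 0.606 kb from a Ctrl row and is uncertain.

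Distances to Ctrl spanned from contact to megabases. The median distance of a member to the nearest Ctrl Pol2S5p row was 4.04 kb (quartiles 0.917 and 23.9 kb), 7 members touched a Ctrl row without overlapping it, and the farthest was 4168 kb away. Within 1 kb of a Ctrl row lay 3075 members (26.2%), at 1 to 5 kb 3248 (27.7%), at 5 to 10 kb 1201 (10.2%), at 10 to 100 kb 2923 (24.9%) and at 100 kb or more 1289 (11.0%). Median fold was 4.53, 4.49, 4.59, 5.07 and 6.54 in the same order, and the share in the strongest class 1.69%, 2.99%, 5.25%, 18.7% and 36.8%. The farthest members with a -log10 q of at least 5 were 4 at ADGRL3, an adhesion G-protein-coupled receptor gene on chromosome 4, the outermost at chr4:62068061-62069163, and 1 at AUTS2, at chr7:69062122-69064127, 2232 kb from Ctrl. The AUTS2 member overlapped an E2F3 row of Ctrl (fold 24.9) and an H3K27me3 row of Ctrl (fold 6.70).

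**Figure D3:**
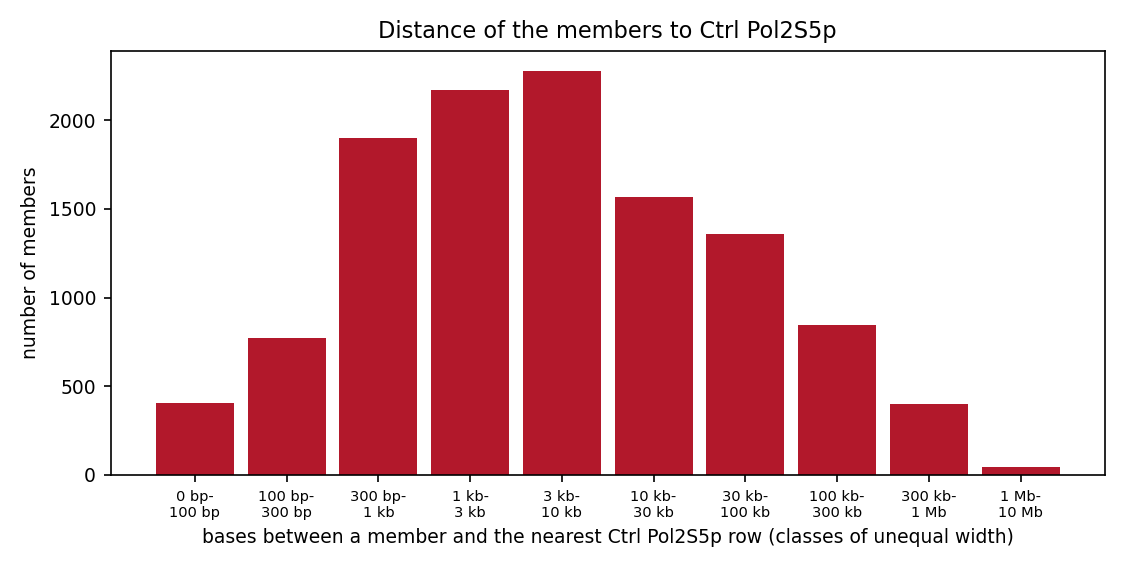
Number of members (vertical axis) in classes of distance to the nearest Ctrl Pol2S5p row (horizontal axis, classes of unequal width). Counts are highest between 1 and 10 kb, and 1289 members lie at 100 kb or more.

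E2F3 overlapped few members in the state in which they were called. In H1-10 OE 98 members (0.835%) overlapped an E2F3 row, where 3.15% of all H1-10 OE Pol2S5p rows did, against 476 (2.17%) of the rows in all 4 lists; the difference was -1.33 percentage points (95% Newcombe interval -1.58 to -1.07, counting error only, and neighbouring rows are not independent). Within strength classes it was not lower: the difference was 0.573 points (0.281 to 0.905) in the middle class, and its interval held 0 in the weakest (0.0659, -0.0974 to 0.203) and the strongest (0.0580, -0.940 to 1.32). The 5669 H1-10 OE rows that lacked a Ctrl counterpart but were missing from siE2F3 or siCtrl overlapped E2F3 of H1-10 OE at 12.1% (688 rows), and members were lower by 11.3 points (difference -11.3, interval -12.2 to -10.5). In the strongest class the shares were 3.81% of members and 69.9% of those rows.

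E2F3 of Ctrl overlapped more members: 1335 (11.4%), where 34.2% of all H1-10 OE rows did, against 55.2% of the rows in all 4 lists (difference -43.9 points, interval -44.7 to -43.0) and 3.81% of the rows missing from siE2F3 or siCtrl (difference 7.57, interval 6.79 to 8.32). Within strength classes the difference from the rows in all 4 lists was -5.41, -8.44 and -43.5 points. By the rule, members overlap no Ctrl Pol2S5p row, while the rows in all 4 lists do. How far the difference in E2F3 of Ctrl between these sets follows from that choice was not tested. Members were also narrower (median 474 bp against 1059 bp), and the part of row width was not tested. Only 7 members overlapped E2F3 in both states, 91 only in H1-10 OE and 1328 only in Ctrl. The 2 E2F3 lists shared little anywhere: of all 22988 E2F3 rows of Ctrl, 595 (2.59%) overlapped an E2F3 row of H1-10 OE. Of the members overlapping E2F3 of Ctrl 0.524% (7 of 1335) also overlapped E2F3 of H1-10 OE, as did 452 of 12136 rows in all 4 lists (3.72%). The E2F3 lists had 4296 rows in H1-10 OE and 22988 in Ctrl, so the lists differ in length, and read depth is unknown. The E2F3, siE2F3 and siCtrl peak names carry another folder label than those of Pol2S5p in H1-10 OE and Ctrl; the part of a processing difference was not tested.

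Members that overlapped E2F3 of H1-10 OE and had the highest -log10 q were, after XIST, chrX:122980186-122981995 (Pol2S5p fold 26.4, E2F3 fold 10.5) and chr3:8630431-8632254 (19.7 and 6.97), neither with a gene assigned. The first lay 11.3 kb from a Ctrl Pol2S5p row and the second 144 kb. A member at chr17:46723323-46725221 had E2F3 rows in both states, with folds of 3.40 in H1-10 OE and 4.30 in Ctrl, and an H3K27me3 row of Ctrl.

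H3K27me3 of Ctrl lay near a larger share of members than of the rows in all 4 lists. Within 5 kb of a Ctrl H3K27me3 row were 394 members (3.36%), where 1.45% of all H1-10 OE rows were, against 97 (0.441%) of the rows in all 4 lists (difference 2.92 points, interval 2.59 to 3.27) and 1.61% of the rows missing from siE2F3 or siCtrl (difference 1.75, interval 1.28 to 2.20). The difference from the rows in all 4 lists was 1.11, 3.23 and 10.6 points in the weakest, middle and strongest classes, and 11.1% of the strongest members were near this mark against 0.481% of the strongest rows in all 4 lists. Set against the rows missing from siE2F3 or siCtrl, members differed in the weakest class by -0.0820 points (interval -0.613 to 0.407, which holds 0), by 1.87 (0.999 to 2.64) in the middle and by 9.43 (6.40 to 11.6) in the strongest. Seen from the mark, 502 of the 2540 Ctrl H3K27me3 rows (19.8%) lay within 5 kb of a member and 101 (3.98%) within 5 kb of a row in all 4 lists. No Ctrl H3K27me3 row was called on chromosome X, so the 470 members there could not count. Here too the members lack Ctrl Pol2S5p by the rule and the rows in all 4 lists have it. How far the difference between these sets follows from that choice was not tested.

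In H1-10 OE itself the difference was small. H3K27me3 of H1-10 OE lay within 5 kb of 170 members (1.45%), where 1.44% of all H1-10 OE rows were near it, against 1.21% of the rows in all 4 lists (difference 0.242 points, interval -0.0101 to 0.512). It was -0.404 points in the weakest class and 2.62 (1.69 to 3.83) in the strongest. Of the 394 members near H3K27me3 of Ctrl, 65 (16.5%, interval 13.2 to 20.5%) were also near H3K27me3 of H1-10 OE, as were 34 of the 97 rows in all 4 lists that were near H3K27me3 of Ctrl (35.1%, interval 26.3 to 45.0%). Of all 2540 H3K27me3 rows of Ctrl, 908 (35.7%) lay within 5 kb of an H3K27me3 row of H1-10 OE. A further 105 members were near the mark only in H1-10 OE and 329 only in Ctrl. The H3K27me3 lists had 18395 rows in H1-10 OE and 2540 in Ctrl, with 1319 and 0 on chromosome X. The part of list length in these counts was not tested.

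**Figure D4:**
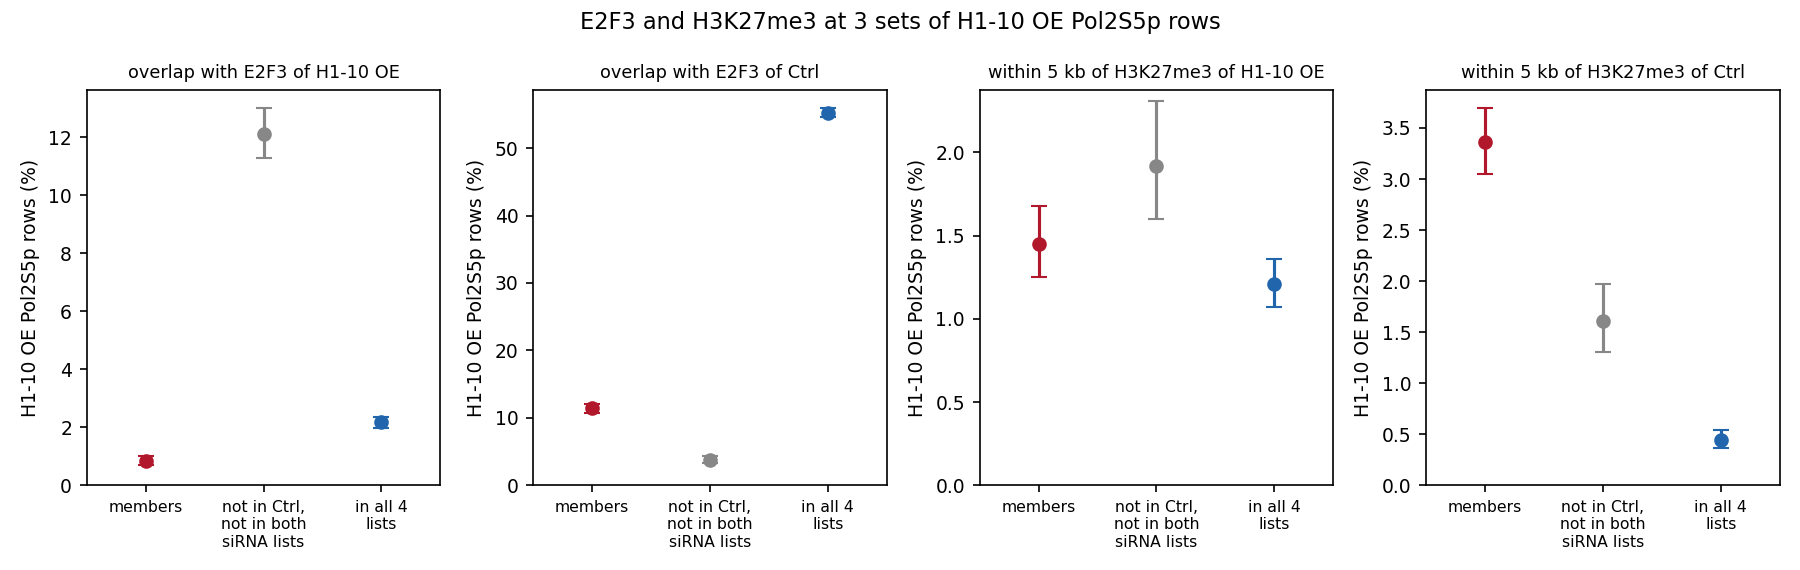
Share (%) of H1-10 OE Pol2S5p rows that overlap E2F3 or lie within 5 kb of H3K27me3, in H1-10 OE or in Ctrl, for members, for rows missing from Ctrl and from at least 1 siRNA list, and for rows in all 4 lists; bars are 95% Wilson intervals and vertical scales differ between panels. Members have 11.4% with E2F3 of Ctrl against 55.2% of the rows in all 4 lists, and 3.36% near H3K27me3 of Ctrl against 0.441%. By the rule, members overlap no Ctrl Pol2S5p row, while the rows in all 4 lists do.

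E2F3 of Ctrl overlapped a larger share of the members near H3K27me3 of Ctrl than of the other members. For scale, it overlapped 34.2% of all H1-10 OE rows and 43.4% of members in the strongest class. Both E2F3 and H3K27me3 of Ctrl were more frequent at strong members and at members far from Ctrl Pol2S5p. The part of strength and of distance was not tested. Of the 394 members near H3K27me3 of Ctrl, 206 (52.3%, interval 47.4 to 57.2%) overlapped E2F3 of Ctrl, against 1129 of the 11342 other members (9.95%, interval 9.42 to 10.5%). Among them were a member at chr1:244210658-244213494, which overlapped no recalled gene but lay within 5 kb of ZBTB18, a zinc finger gene, with an E2F3 fold of 28.6 and an H3K27me3 fold of 3.39 in Ctrl, and one at FGFR2, a fibroblast growth factor receptor gene, with 16.9 and 4.26. Members at LBH, at MSX1, a homeobox gene, and at NAV2 overlapped E2F3 of Ctrl with folds of 7.16, 9.41 and 14.5 and lay 0.307, 3.52 and 0.562 kb from a Ctrl H3K27me3 row. They lay 83.1 kb, 283 kb and 469 kb from Ctrl Pol2S5p. The member at RUNX1, a transcription factor gene of blood formation, overlapped an H3K27me3 row of H1-10 OE (fold 6.57) and an E2F3 row of Ctrl (fold 12.4) and lay 0.803 kb from H3K27me3 of Ctrl.

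All 4 shares were larger among members at least 10 kb from Ctrl Pol2S5p than among nearer ones. E2F3 of Ctrl overlapped 3.09% of members within 1 kb of a Ctrl row, 2.65% at 1 to 5 kb, 6.91% at 5 to 10 kb, 22.0% at 10 to 100 kb and 33.2% at 100 kb or more. H3K27me3 of Ctrl lay near 0.293%, 0.523%, 0.999%, 6.40% and 13.1% in the same order. For E2F3 of H1-10 OE the shares were 0.130%, 0.154%, 0.500%, 1.54% and 2.95%, and for H3K27me3 of H1-10 OE 0.618%, 0.708%, 0.749%, 2.36% and 3.88%. Peak strength moved with distance too, as given above, and so did median width, at 438, 440, 445, 516 and 671 bp. The part of strength and of width was not tested.

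**Figure D5:**
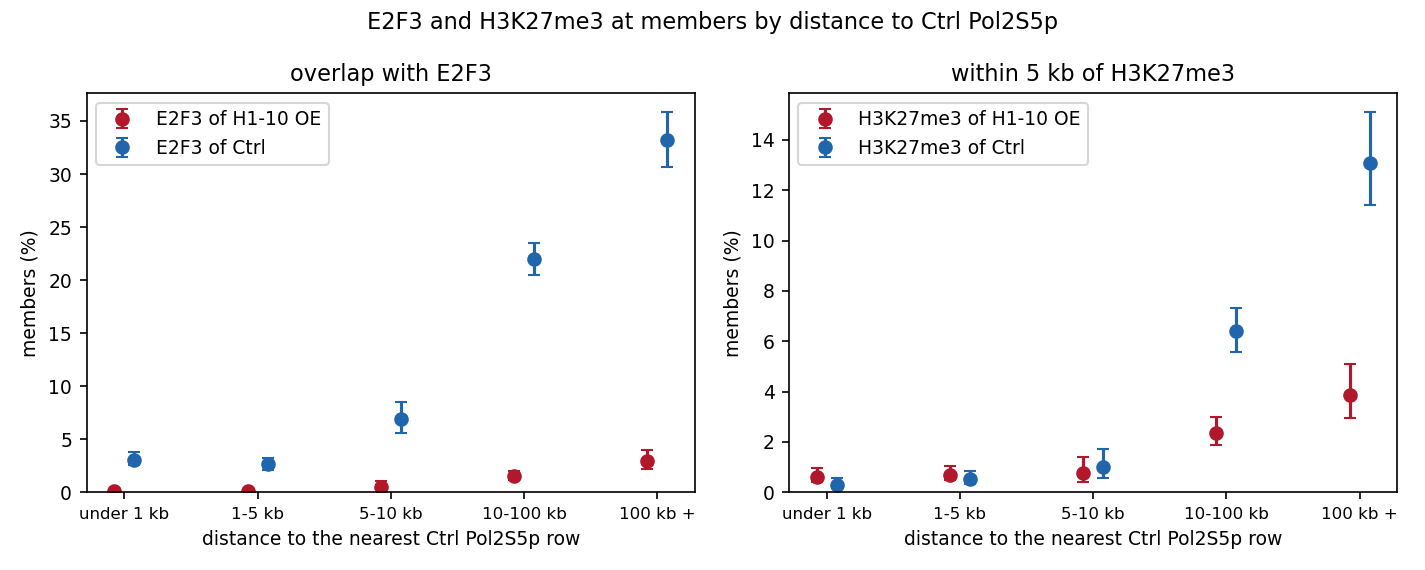
Share (%) of members that overlap E2F3 (left) or lie within 5 kb of H3K27me3 (right), in H1-10 OE and in Ctrl, by distance to the nearest Ctrl Pol2S5p row; bars are 95% Wilson intervals. E2F3 of Ctrl reaches 33.2% and H3K27me3 of Ctrl 13.1% at 100 kb or more.

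Chromosome X carried 470 members, 4.00% of all (interval 3.66 to 4.37%), where 3.24% of all H1-10 OE rows lay there, against 2.83% of the rows in all 4 lists (difference 1.17 points, interval 0.765 to 1.60). Of the H1-10 OE rows on a chromosome, members made up 35.7% on X, 35.6% on 22 and 33.2% on 21, and 25.1% on 4. The Ctrl list had 2.48% of its rows on X.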

How the data were processed

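ChIP-seq peak lists of 8 of the 22 samples were used, 1 library per group: Pol2S5p in H1-10 OE, siE2F3, siCtrl and Ctrl, and E2F3 and H3K27me3 in H1-10 OE and Ctrl. The other 14 samples (10 inputs and 4 H1-10 libraries) were not used here. Groups came from the sample titles. The authors called peaks per library and deposited a score, a fold enrichment (a ratio to background), and the -log10 p and the -log10 q of each peak. FastQC, fastp, Bowtie and hg19 are named in the submitters' processing notes; no peak caller or setting is given in the sources used here. Peak names carry one folder label for H3K27me3 and for Pol2S5p in H1-10 OE and Ctrl, and another for E2F3, siE2F3 and siCtrl. Read depth is unknown, so list lengths could not be scaled to it.

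Rows were compared by an overlap of at least 1 bp, and distances run from edge to edge. H3K27me3 was counted within 5 kb. Clusters join members with gaps of at most 10 kb. Shares carry 95% Wilson and differences 95% Newcombe intervals, which cover counting error only; no p-value was computed, since rows do not replicate a condition. The members and lists were chosen with earlier results of these data known. Regions were named by rule: the 12 clusters with the largest summed member length, the 10 members highest by -log10 q, the 5 farthest from Ctrl, the 5 highest by -log10 q at each E2F3 and H3K27me3 list, and the edges of the rule; some of these are counted and not described. The overlap code was tested on simulated data: all 1000 rows planted among the 40626 H1-10 OE rows were found, distances matched a direct search with 0 mismatches, and overlaps on the real lists were counted alike by bedtools.

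The plan allowed gene names and gene lists only from an hg19 annotation, from a matching sequence or from the series' own text. No hg19 annotation was used here, so this plan was not kept. Apart from AMOT, KCTD12, MIR221 and MIR222, whose names the series' text gives, names and all gene list counts rest on the positions of 127 genes recalled from general knowledge of hg19. Against RefSeq of GRCh38.p14, used for names, order and length only, 127 symbols and chromosomes matched, 104 of 104 neighbouring pairs kept their order and 106 lengths came within 10%. A gene counted where a row lay within 5 kb. Some planned genes of the luminal list are not reported here. Sequences came from RefSeq tables of GRCh38.p14, and no coordinates were converted. The tools were bedtools 2.31.1, statsmodels 0.14.6, matplotlib 3.10.9, pandas 2.3.3, numpy 2.4.6 and scipy 1.17.1 under Python 3.11.15.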

Additional observations from a re-analysis of the deposited data

How the results depend on the processing

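The number of members, 11736, was 4373 with a -log10 q of at least 5 in H1-10 OE, siE2F3 and siCtrl, 5654 with that minimum in all 4 lists, 7262 with the strongest 35493 rows of each list, 2646 with 50% reciprocal overlap, 5412 with no Ctrl row within 5 kb and 7512 where no siRNA row that met a member reached a Ctrl row; the last was chosen after seeing the data. The share of members in clusters of at least 3 was 26.4%, 49.7% and 60.6% at gaps of 5, 25 and 50 kb, and 11.9% with a -log10 q of at least 5. The median distance to Ctrl was 4.90 kb between summits and 7.70 kb to Ctrl rows with a -log10 q of at least 5. The chromosome X share was 4.53% with that minimum in H1-10 OE, siE2F3 and siCtrl.

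Members minus rows in all 4 lists, the E2F3 of H1-10 OE difference was above 0 in the middle class, at 0.573 points (0.281 to 0.905), and had an interval that held 0 in the weakest, at 0.0659 (-0.0974 to 0.203), and the strongest, at 0.0580 (-0.940 to 1.32). The H3K27me3 of H1-10 OE difference was -0.404 points in the weakest class. Its interval cleared 0 at 0.146 points for 1 bp overlap, 0.355 within 1 kb, 2.62 in the strongest class, 0.495 for clusters in place of rows and 0.671 without the bridging siRNA rows. The causes were not tested. Against the rows in all 4 lists, the E2F3 of Ctrl and H3K27me3 of Ctrl differences kept their direction, with intervals clear of 0, under every setting run. Against the rows missing from siE2F3 or siCtrl, the H3K27me3 of Ctrl difference in the weakest class was -0.0820 points (-0.613 to 0.407). Clusters as the unit and the siRNA lists taken singly were also chosen after seeing the data. No paired analysis was possible because each group has 1 library.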
